A study of Mus musculus with 40 samples.

Results

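The 38 genes described here encode factors that build ribosomes, enzymes of polyamine synthesis and the transcription factor MYC, which is known to raise transcription of such genes. They were chosen by name. The group holds Myc itself, 5 nucleolar proteins, 4 proteins of the box C/D and U3 small nucleolar ribonucleoproteins (snoRNPs), 3 proteins of box H/ACA snoRNPs, 3 genes of RNA polymerase I transcription, 10 factors of small subunit assembly, 10 factors of large subunit assembly and 2 polyamine enzymes. A gene also had to reach 1 FPKM (fragments per kilobase of transcript, scaled to sequencing depth) in at least 4 of 8 or 3 of 6 libraries of a table. All 38 did so in each of the 6 tables, among 9341 genes that did so in every table and 15599 that did so in any.

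The study asked what HIRA does in blood formation. HIRA is a histone chaperone that deposits H3.3, a variant of histone H3, outside DNA replication. RNA was sequenced from mouse bone marrow in 40 libraries and 12 groups, of hematopoietic stem cells (HSCs) or of multipotent progenitors (MPPs). All mice were C57BL/6 and their genotype is labelled WT or HIRA KO. Deletion of Hira was induced by 2 intraperitoneal doses of 20 µg poly(I:C), a double-stranded RNA mimic that induces interferon. The Cre, named for the second cohort, is Mx1-Cre, whose interferon-inducible promoter is active in blood cells and also in other tissues. In the first cohort (4 libraries each of WT HSC, KO HSC, WT MPP and KO MPP), cells (2500) were collected by sorting at 1 week from the first dose. In the second cohort (3 libraries in each of 8 groups), the genotype named is Mx1-Cre, Hira fl/fl, Rosa26-M2rtTA and TetOP-H2B-GFP. The mice drank doxycycline at 2 mg/ml, sweetened with sucrose at 10 mg/ml, for 6 weeks. They were killed 17 days after doxycycline ended, 15 days from the end of poly(I:C), and WT and KO HSCs and MPPs were each sorted as H2B-GFP high or low. GFP bound to histone H2B is diluted at each division, so GFP-high cells have divided less since the pulse than GFP-low cells. Whether WT mice carried Mx1-Cre, a floxed allele or neither, and whether each library came from its own mouse, is not given in the sources used here. The p-values below therefore measure the spread between these libraries, which may be technical.

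Ribosome production starts in the nucleolus, where RNA polymerase I transcribes the ribosomal RNA precursor. Box C/D and box H/ACA snoRNPs then modify that precursor, and assembly factors fold, cut and export the small and large subunits. The pathway is among the costliest of a growing cell, its genes are classical targets of MYC, and HSCs are known for a low rate of protein synthesis. MYC binds DNA with its partner MAX at the E-box CACGTG.

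The RefSeq promoter table (GRCm38.p6) held 31 of the 38 genes, in 34 windows of 300 bases that run from 250 bases before to 50 bases after a start site. CACGTG, which reads the same on both strands and was the only motif searched, was present in 7 of these 34 windows (20.6%). It was present in 7.15% of all 32851 windows in the table and in 10.4% of the 10919 windows of genes tested in GFP-high HSCs. The 7 genes with a match were Imp4, Nop2, Mybbp1a, Pes1, Tsr1, Utp20 and Wdr43, each with 1 match. They are printed because they show where in its promoter a gene of this group holds the MYC/MAX E-box. The E-box is in capitals, and each sequence is on the strand of its gene. A match describes these letters and is not evidence of binding.
Imp4 (chr1:34439664-34439763, plus strand): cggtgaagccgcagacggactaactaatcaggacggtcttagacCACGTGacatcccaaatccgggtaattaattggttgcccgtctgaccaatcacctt
Nop2 (chr6:125131783-125131882, plus strand): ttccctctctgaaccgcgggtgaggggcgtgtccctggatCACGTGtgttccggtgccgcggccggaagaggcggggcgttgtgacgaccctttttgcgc
Pes1 (chr11:3963965-3963994, plus strand): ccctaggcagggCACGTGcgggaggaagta
Wdr43 (chr17:71616220-71616249, plus strand): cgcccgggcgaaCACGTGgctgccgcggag
Tsr1 (chr11:74898092-74898121, plus strand): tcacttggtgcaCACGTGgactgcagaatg
Utp20 (chr10:88826765-88826794, minus strand): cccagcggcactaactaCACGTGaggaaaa
Mybbp1a (chr11:72441347-72441376, plus strand): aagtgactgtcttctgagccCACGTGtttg
In Imp4 and Nop2 the E-box lay upstream of the start site, with its first base at -121 and -60. In the other 5 genes it lay just downstream, from base 3 in Pes1 to base 41 in Mybbp1a. These 7 genes did not share a direction in the 6 KO against WT comparisons below. The KO mean was above WT in 6 comparisons for Pes1, 4 for Imp4 and Tsr1 and 3 for Wdr43. It was above WT in 2 for Utp20 and in 1 for Mybbp1a and Nop2. A link between the E-box and the direction was not tested.

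Depth differed between the cohorts, with 17.19 to 30.99 M reads (1 M is 1e+06) per library in the first and 5.866 to 9.651 M in the second, recovered from the FPKM steps. Members were far from the detection limit, from 116 reads for Gar1 in a GFP-high HSC library to 47515 for Npm1 in an MPP library. Hira itself was low and its groups overlapped in every table, so its RNA does not check the labels: WT means lay between 1.25 and 2.28 FPKM and KO means between 1.11 and 2.05 FPKM. Which exons are removed is not given in the sources used here. Slamf1, an HSC surface marker, was at 5.59 FPKM in WT HSCs and at most 0.563 FPKM in any MPP library of the first cohort. Flt3, which marks MPPs, was at 4.64 FPKM in WT HSCs and 54.1 FPKM in WT MPPs. Procr, also an HSC surface marker, went the other way, at 8.55 FPKM in WT HSCs and 14.7 FPKM in WT MPPs. In bulk samples, fewer cells of a type and less RNA per cell cannot be told apart.

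None of the 38 genes was called different between KO and WT in any of the 6 populations. Each population was tested with limma on log2(FPKM + 1), with Benjamini-Hochberg adjustment over all genes of the table and a threshold of 0.05. In HSCs 0 of 38 passed, where 0.124% of all 13717 genes did. In MPPs 0 of 38 passed, against 0.108% of 13916 genes. In GFP-high HSCs 0 of 38 passed, against 0.0276% of 10850 genes. In GFP-low HSCs and in GFP-high MPPs no gene passed at all, members included, which is 0% of 10705 and 0% of 10789 genes. In GFP-low MPPs 0 of 38 passed, against 0.320% of 10621 genes. At an unadjusted p under 0.05, 2, 7, 0, 1, 0 and 3 of the 38 stood in these 6 comparisons in the same order, which is the order used below. The shares over all genes were 10.1%, 16.6%, 10.4%, 8.57%, 7.09% and 12.3%. A low background leaves little to read from these counts of 0, but the differences were also small: the largest in size over all members was 0.48 on the log2 scale, for Odc1 in MPPs. The median standard error of a member's difference was between 0.12 and 0.16.

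**Figure D1:**
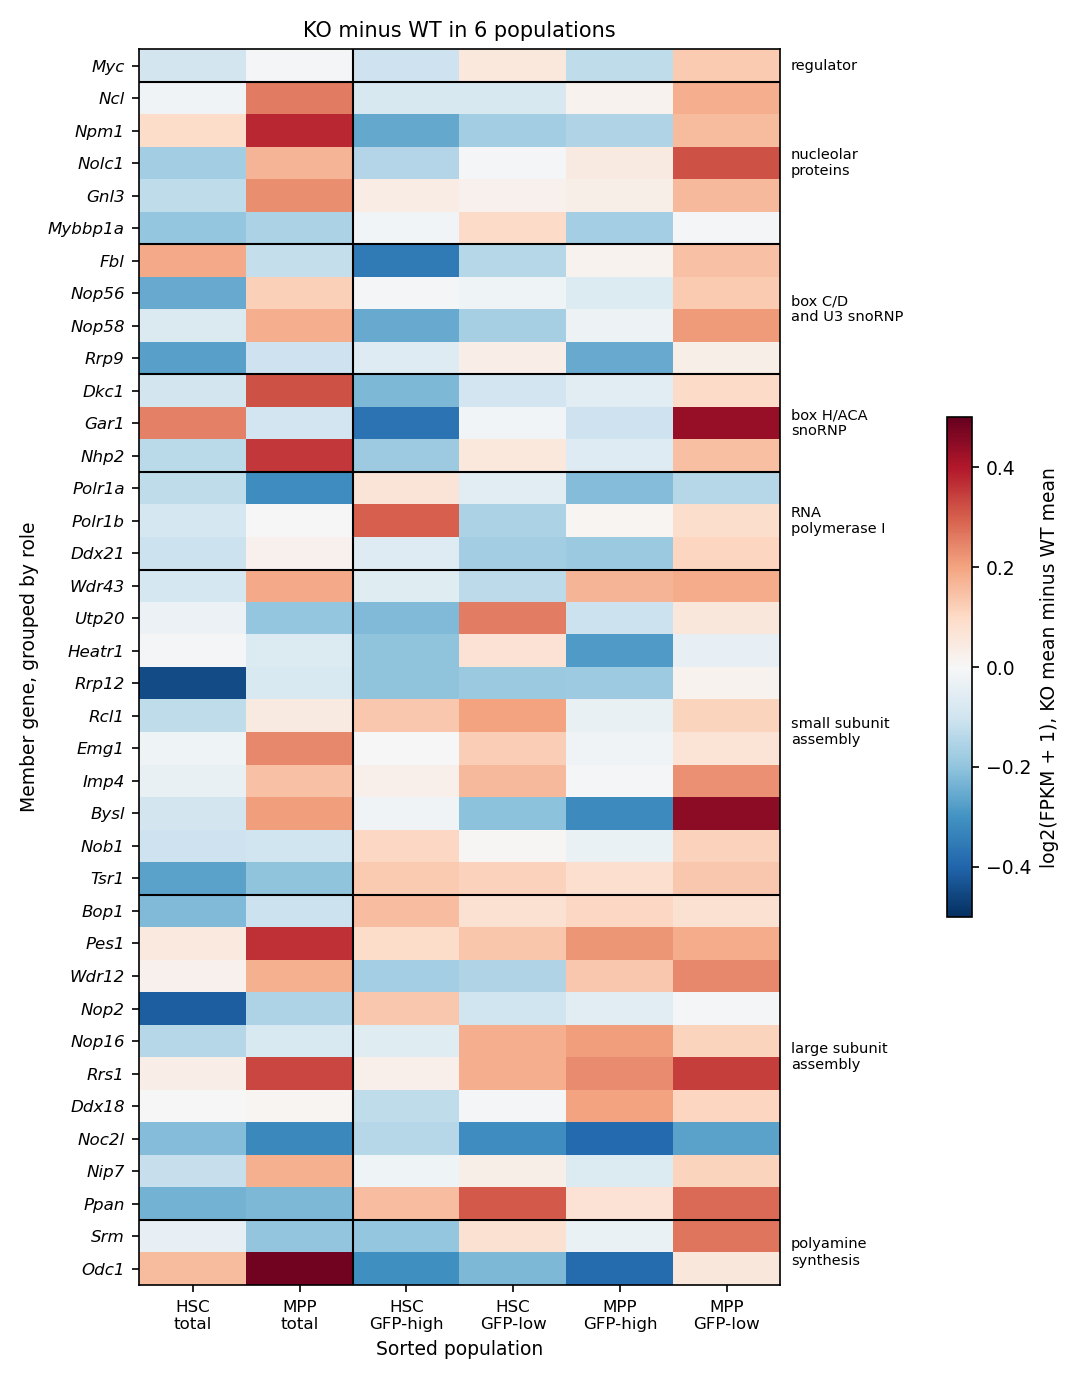
Difference of the KO and WT group means on the log2(FPKM + 1) scale for each of the 38 genes (rows, grouped by role) in the 6 populations (columns), with colours spanning -0.5 to 0.5. Most cells are pale, the HSC column is mostly below 0 (30 of 38 genes) and the GFP-low MPP column is mostly above 0 (33 of 38 genes).

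The direction of the members' small differences was not the same in all populations. In HSCs 8 of 38 had a higher KO mean and 30 a lower one (median log2 difference -0.09), beside 49.8% of all genes with a higher mean. In GFP-low MPPs 33 of 38 had a higher KO mean (median 0.12), beside 50.4% of all genes. The other populations lay between, with 20 of 38 above 0 in MPPs (median 0.02; 50.4% of all genes) and 12 in GFP-high HSCs (-0.06; 49.6%). There were 19 in GFP-low HSCs (0.00; 49.2%) and 14 in GFP-high MPPs (-0.03; 51.0%). The median over all genes tested was within 0.01 of 0 in every table. Genes of this group varied together from library to library, so these counts are not 38 separate observations. When each library was instead scaled to its summed FPKM, the medians became -0.16, -0.06, 0.01, -0.04, 0.06 and 0.18 in the order above. The sign thus held in HSCs and GFP-low MPPs and turned in MPPs, GFP-high HSCs, GFP-low HSCs and GFP-high MPPs.

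Single libraries set much of these medians. In the KO HSC library 4, only 3 of the 38 genes lay above their mean over the table, and without that library the HSC median fell in size to -0.01. In the WT HSC library 1, 36 of 38 lay above it. In the WT MPP library 2, 3 of 38 lay above it. In the second cohort the library numbered 3 of the KO mice held the members high in all 4 tables, with 31 and 33 of 38 above the table mean in GFP-high and GFP-low HSCs and 30 and 35 in GFP-high and GFP-low MPPs. The WT library numbered 2 held them low in the same 4 tables, with 4, 10, 15 and 1 of 38 above the mean. The median of GFP-low MPPs fell from 0.12 to 0.04 without that WT library. The mean log2(FPKM + 1) of the 38 genes in GFP-low MPPs was 4.57 ± 0.15 (SD, n = 3) in WT and 4.70 ± 0.16 (SD, n = 3) in KO, so the groups differed by less than 1 SD. Of the 228 differences of single members (38 genes in 6 populations), 200 turned or shrank by more than 1.5 times without the library that mattered most. That library was picked for each gene, and the share of all genes that did so was not counted. The count therefore does not set the members apart from other genes.

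Few members had WT and KO groups that did not overlap, and the counts were near the share of all genes. Higher in KO without overlap were 0 of 38 in HSCs (2.81% of all genes), 2 in MPPs (5.08%; Emg1 and Pes1) and 1 in GFP-high HSCs (8.61%; Ppan). There were 2 in GFP-low HSCs (7.67%; Nop16 and Ppan), 1 in GFP-high MPPs (6.74%; Pes1) and 4 in GFP-low MPPs (9.73%; Bysl, Imp4, Ppan and Rrs1). Lower in KO without overlap were 1 of 38 in HSCs (3.39%; Rrp12), 1 in MPPs (4.84%; Polr1a) and 2 in GFP-high HSCs (7.47%; Heatr1 and Npm1). There were 1 in GFP-low HSCs (6.42%; Wdr12), 2 in GFP-high MPPs (6.59%; Mybbp1a and Rrp9) and 0 in GFP-low MPPs (9.33%).

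**Figure D2:**
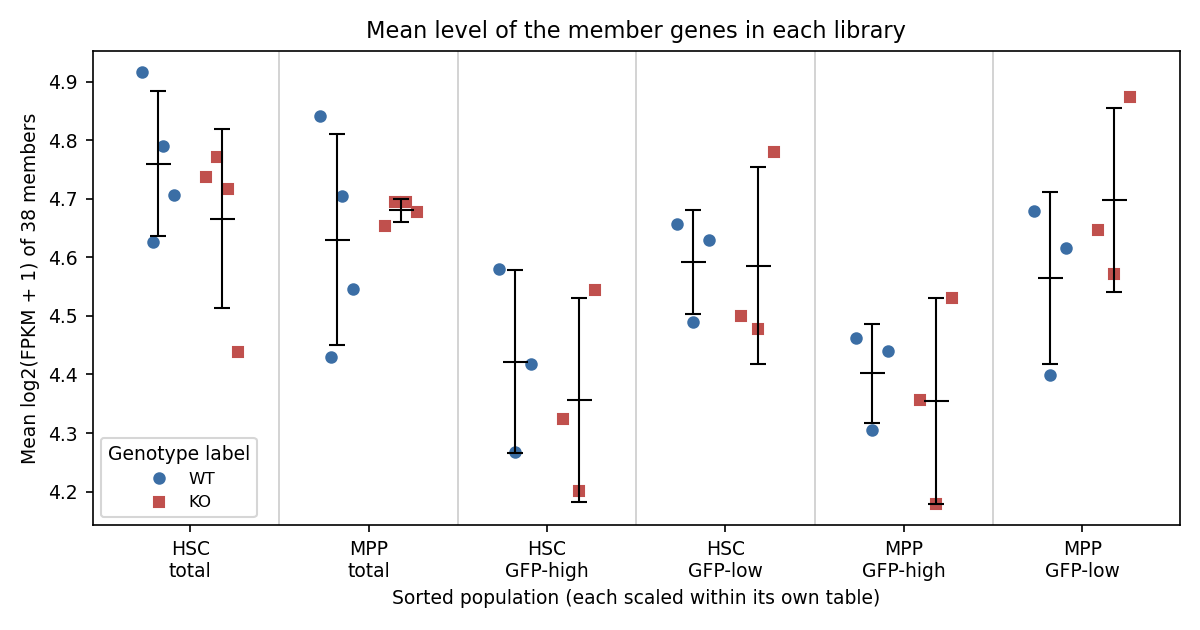
Mean log2(FPKM + 1) of the 38 genes in each library (points), with the group mean and SD (bars), for WT and KO in the 6 populations. WT and KO ranges overlap in every population. The lowest KO HSC library, at 4.44, stands below the other 3, which start at 4.72.

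Myc, the regulator of the group, was not called different in any population. The gene lies at chr15:61985391-61990374 (plus strand). In HSCs it was at 72.1, 102, 77.6 and 85.5 FPKM in WT and at 84.1, 86.5, 89.2 and 58.7 FPKM in KO. In MPPs it was at 104, 86.5, 102 and 120 FPKM in WT and 93.0, 94.6, 96.8 and 126 FPKM in KO. The ranges overlapped in both, with log2 differences of -0.09 ± 0.15 (SE) and -0.01 ± 0.14. In GFP-high HSCs Myc was at 74.3, 67.5 and 72.1 FPKM in WT and 67.9, 55.7 and 76.5 FPKM in KO. In GFP-low HSCs the values were 81.5, 73.6 and 67.9 FPKM in WT and 82.0, 70.5 and 78.8 FPKM in KO. The ranges overlapped in both of these sorts. In GFP-high MPPs Myc was at 85.7, 85.7 and 89.6 FPKM in WT and 89.1, 64.8 and 87.2 FPKM in KO. In GFP-low MPPs it was at 106, 96.6 and 97.4 FPKM in WT and 117, 78.0 and 143 FPKM in KO, so that KO libraries were both the lowest and the highest. Across the 6 comparisons its adjusted p from limma was never below 0.817.

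The nucleolar proteins are the scaffold and chaperones of the nucleolus. Npm1, the nucleolar chaperone nucleophosmin, was the most abundant member and lies at chr11:33152287-33163206 (minus strand). In MPPs it was at 510, 391, 383 and 316 FPKM in WT and 517, 484, 572 and 479 FPKM in KO. The KO libraries were the higher ones except for WT library 1, and the difference was 0.38 ± 0.15 (SE; adjusted p = 0.259, limma). In GFP-high HSCs Npm1 was at 315, 313 and 303 FPKM in WT and 269, 219 and 298 FPKM in KO. These groups did not overlap and lay the other way round (-0.26 ± 0.12; adjusted p = 0.486, limma), and without KO library 2 the difference was -0.13. In HSCs its values were 533, 389, 467 and 434 FPKM in WT and 478, 503, 470 and 481 FPKM in KO, all KO values lying inside the WT range. In GFP-low HSCs Npm1 was at 345, 357 and 373 FPKM in WT and 302, 263 and 403 FPKM in KO. In GFP-high MPPs it was at 283, 307 and 277 FPKM in WT and 250, 200 and 352 FPKM in KO. In GFP-low MPPs it was at 326, 341 and 343 FPKM in WT and 354, 306 and 489 FPKM in KO. In each of these 3 the KO libraries spread to both sides of a narrow WT group, and KO library 3 was the highest.

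Ncl, the nucleolar RNA-binding protein nucleolin, overlapped in all 6 comparisons. In HSCs it was at 70.8, 47.0, 59.6 and 47.2 FPKM in WT and 61.2, 58.9, 50.5 and 49.1 FPKM in KO. Among MPPs it was at 63.7, 42.2, 44.2 and 36.9 FPKM in WT and 57.6, 51.6, 56.9 and 54.3 FPKM in KO, a difference of 0.26 ± 0.16 (SE; adjusted p = 0.428, limma) that ranged from 0.16 without WT library 4 to 0.42 without WT library 1. The KO MPP libraries were close together and inside the wider WT range. In GFP-high HSCs Ncl was at 43.0, 36.3 and 37.9 FPKM in WT and 37.6, 31.8 and 41.8 FPKM in KO, and in GFP-low HSCs at 54.2, 39.0 and 52.6 FPKM in WT and 42.2, 40.9 and 54.2 FPKM in KO. In GFP-high MPPs it was at 42.4, 40.9 and 34.6 FPKM in WT and 38.7, 33.8 and 47.6 FPKM in KO, and in GFP-low MPPs at 47.1, 40.0 and 46.0 FPKM in WT and 48.3, 46.4 and 56.8 FPKM in KO. Neither genotype stood apart in any of them. The other nucleolar members are Nolc1, Gnl3 (nucleostemin) and Mybbp1a. Gnl3 had a higher KO mean in 5 of 6 comparisons and Mybbp1a a lower KO mean in 5 of 6, none past the threshold.

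The box C/D snoRNPs add methyl groups to ribosomal RNA, with Fbl (fibrillarin) as the enzyme, Nop56 and Nop58 as core proteins and Rrp9 as a protein of the U3 particle. Fbl varied widely between libraries of a group. In HSCs it was at 34.6, 17.3, 35.7 and 29.8 FPKM in WT and 36.6, 37.6, 30.1 and 26.6 FPKM in KO, and WT library 2 was far below the rest. MPP libraries held it at 38.8, 27.9, 35.8 and 26.6 FPKM in WT and 34.4, 32.2, 28.1 and 23.7 FPKM in KO. In GFP-high HSCs it was at 25.1, 36.8 and 29.8 FPKM in WT and 15.3, 27.3 and 30.6 FPKM in KO, and the lowest value was again a single library. In GFP-low HSCs Fbl was at 37.7, 39.8 and 37.5 FPKM in WT and 31.5, 26.9 and 49.1 FPKM in KO. In GFP-high MPPs it was at 31.0, 22.2 and 31.6 FPKM in WT and 30.2, 20.0 and 37.6 FPKM in KO. In GFP-low MPPs it was at 30.2, 37.8 and 30.8 FPKM in WT and 37.8, 26.7 and 47.4 FPKM in KO. All of these overlapped, and in the second cohort KO library 3 had the highest KO value each time. Nop56 and Rrp9 had lower KO means in HSCs (-0.25 ± 0.12 and -0.27 ± 0.12, SE), with adjusted p-values of 0.497 and 0.496 from limma. Without KO library 4 these differences were -0.15 and -0.16.

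The box H/ACA snoRNPs turn uridines of ribosomal RNA into pseudouridine, with Dkc1 (dyskerin) as the enzyme and Gar1 and Nhp2 as partners. Gar1 had the smallest p among members with a higher KO mean in HSCs. It was at 13.0, 7.45, 14.8 and 12.8 FPKM in WT and 16.8, 14.9, 13.5 and 11.7 FPKM in KO. The groups overlapped, the difference of 0.25 ± 0.18 (SE) had an adjusted p of 0.681 (limma), and without WT library 2 it was 0.06. In MPPs Dkc1 was at 47.2, 30.2, 36.8 and 37.7 FPKM in WT and 49.7, 40.6, 48.1 and 50.6 FPKM in KO, a difference of 0.32 ± 0.14 (adjusted p = 0.295, limma). Only WT library 1 reached the KO range.

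Polr1a and Polr1b are the large catalytic subunits of RNA polymerase I, and Ddx21 is a helicase of its transcripts. Polr1a was low throughout. In MPPs it was at 4.998, 4.54, 4.60 and 4.26 FPKM in WT and 3.57, 3.25, 3.53 and 3.70 FPKM in KO, and the groups did not overlap. The difference of -0.31 ± 0.12 (SE) had an adjusted p of 0.238 (limma), and Polr1a had a lower KO mean in 5 of 6 comparisons. In GFP-high HSCs, the exception for Polr1a, Polr1b had the smallest p among members with a higher KO mean. It was at 9.28, 7.94 and 8.17 FPKM in WT and 9.89, 8.87 and 13.5 FPKM in KO, a difference of 0.30 ± 0.16 (adjusted p = 0.559, limma). The size rested on KO library 3, without which the difference was 0.14.

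Among the 10 small subunit factors, Rrp12, which takes part in processing and export of pre-40S particles, had the smallest p of all members in HSCs. It was at 5.64, 3.89, 4.63 and 4.64 FPKM in WT and 3.06, 3.76, 3.23 and 2.63 FPKM in KO. Every KO library was below every WT library, and the difference was -0.45 ± 0.13 (SE; adjusted p = 0.258, limma). All 10 small subunit factors had a lower KO mean in HSCs, with a median of -0.09. In GFP-low MPPs 9 of the 10 had a higher KO mean, with a median of 0.11. The largest difference there was in Bysl (bystin, chr17:47599331-47611492, minus strand), which is needed to mature the 40S subunit. Bysl was at 8.51, 6.66 and 8.70 FPKM in WT and 9.87, 11.4 and 12.3 FPKM in KO GFP-low MPPs. The groups did not overlap and the difference was 0.45 ± 0.14 (adjusted p = 0.277, limma). In GFP-high MPPs Bysl lay the other way, at 7.35, 4.88 and 7.72 FPKM in WT and 5.87, 3.23 and 6.62 FPKM in KO, with overlap. Bysl shares 361 exon bases with Ccnd3 on the opposite strand, and strandedness of the counting is not given in the sources used here. In all, 17 of the 38 members share exon bases with a gene on the opposite strand. Ccnd3 was at 32.4 ± 2.08 FPKM in WT and 39.4 ± 6.65 FPKM in KO GFP-low MPPs (SD, n = 3), and its part in the Bysl value was not tested.

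Among the 10 large subunit factors, 3 genes kept one direction in all 6 comparisons: Pes1 and Rrs1 had higher KO means and Noc2l lower ones. The share of all genes that did so was not counted. Pes1 (pescadillo, chr11:3963975-3980004, plus strand) forms a complex with Bop1 and Wdr12 that is needed for 60S maturation. In MPPs it was at 21.1, 19.1, 21.8 and 21.3 FPKM in WT and 29.0, 27.2, 23.7 and 28.8 FPKM in KO. Every KO library was above every WT library, and the difference was 0.37 ± 0.11 (SE; adjusted p = 0.148, limma), the smallest adjusted p of any member in any comparison. In GFP-high MPPs Pes1 was at 20.2, 21.4 and 22.9 FPKM in WT and 24.5, 25.6 and 25.5 FPKM in KO, again without overlap (0.22 ± 0.11; adjusted p = 0.761, limma). In the other 4 populations Pes1 overlapped, with differences of 0.05 in first-cohort HSCs, 0.09 and 0.14 in the GFP-high and GFP-low sorts of HSCs, and 0.19 in GFP-low MPPs. Each of these 4 shrank by more than 1.5 times without 1 library, and in first-cohort HSCs the difference was -0.01 without WT library 2. Its partners did not share the direction throughout: Bop1 and Wdr12 had higher KO means in 4 of 6 comparisons.

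Noc2l (chr4:156236010-156247616, plus strand), a nucleolar factor of the pre-60S particle that also binds p53, gave the member with the smallest p on the lower side in 4 of the 6 comparisons. In MPPs it was at 17.5, 14.1, 18.3 and 16.3 FPKM in WT and 11.4, 12.6, 13.8 and 14.4 FPKM in KO. Only 1 KO library reached the lowest WT value (-0.32 ± 0.12, SE; adjusted p = 0.237, limma). In GFP-low HSCs Noc2l was at 10.4, 7.98 and 10.6 FPKM in WT and 6.73, 7.81 and 8.19 FPKM in KO (-0.31 ± 0.16). In GFP-high MPPs it was at 10.1, 7.54 and 11.4 FPKM in WT and 8.08, 6.18 and 7.00 FPKM in KO (-0.39 ± 0.17; adjusted p = 0.705, limma). WT library 2 lay inside the KO range each time. In GFP-low MPPs Noc2l was at 11.7, 7.15 and 11.9 FPKM in WT and 8.95, 7.98 and 7.53 FPKM in KO (-0.27 ± 0.19), and the difference ranged from -0.49 without WT library 2 to -0.16 without WT library 3. Its differences in HSCs and GFP-high HSCs were -0.22 (-0.10 without KO library 4) and -0.14 (0.01 without WT library 1). Noc2l shares 598 exon bases with Samd11 on the opposite strand. Samd11 was never above 0.819 FPKM and had a higher KO mean in every population. Its part in the Noc2l values was not tested.

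Ppan and Rrs1, both needed for pre-60S particles, were higher in KO in GFP-low MPPs without overlap. Ppan was at 34.3, 28.9 and 35.8 FPKM in WT and 40.1, 39.3 and 41.4 FPKM in KO there, a difference of 0.28 ± 0.11 (SE; adjusted p = 0.365, limma). In GFP-low HSCs Ppan was at 35.9, 29.1 and 27.8 FPKM in WT and 36.6, 38.5 and 39.8 FPKM in KO, also without overlap (0.31 ± 0.13; adjusted p = 0.578, limma). In the first cohort Ppan lay the other way, with KO means below WT in HSCs (-0.24, or -0.09 without KO library 4) and MPPs (-0.23, or -0.09 without KO library 1). Rrs1 in GFP-low MPPs was at 22.9, 17.0 and 19.1 FPKM in WT and 23.5, 23.6 and 28.4 FPKM in KO (0.35 ± 0.14; adjusted p = 0.369, limma). Its direction did not hold in HSCs (0.03, or -0.04 without KO library 2) and GFP-high HSCs (0.03, or -0.11 without KO library 3).

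**Figure D3:**
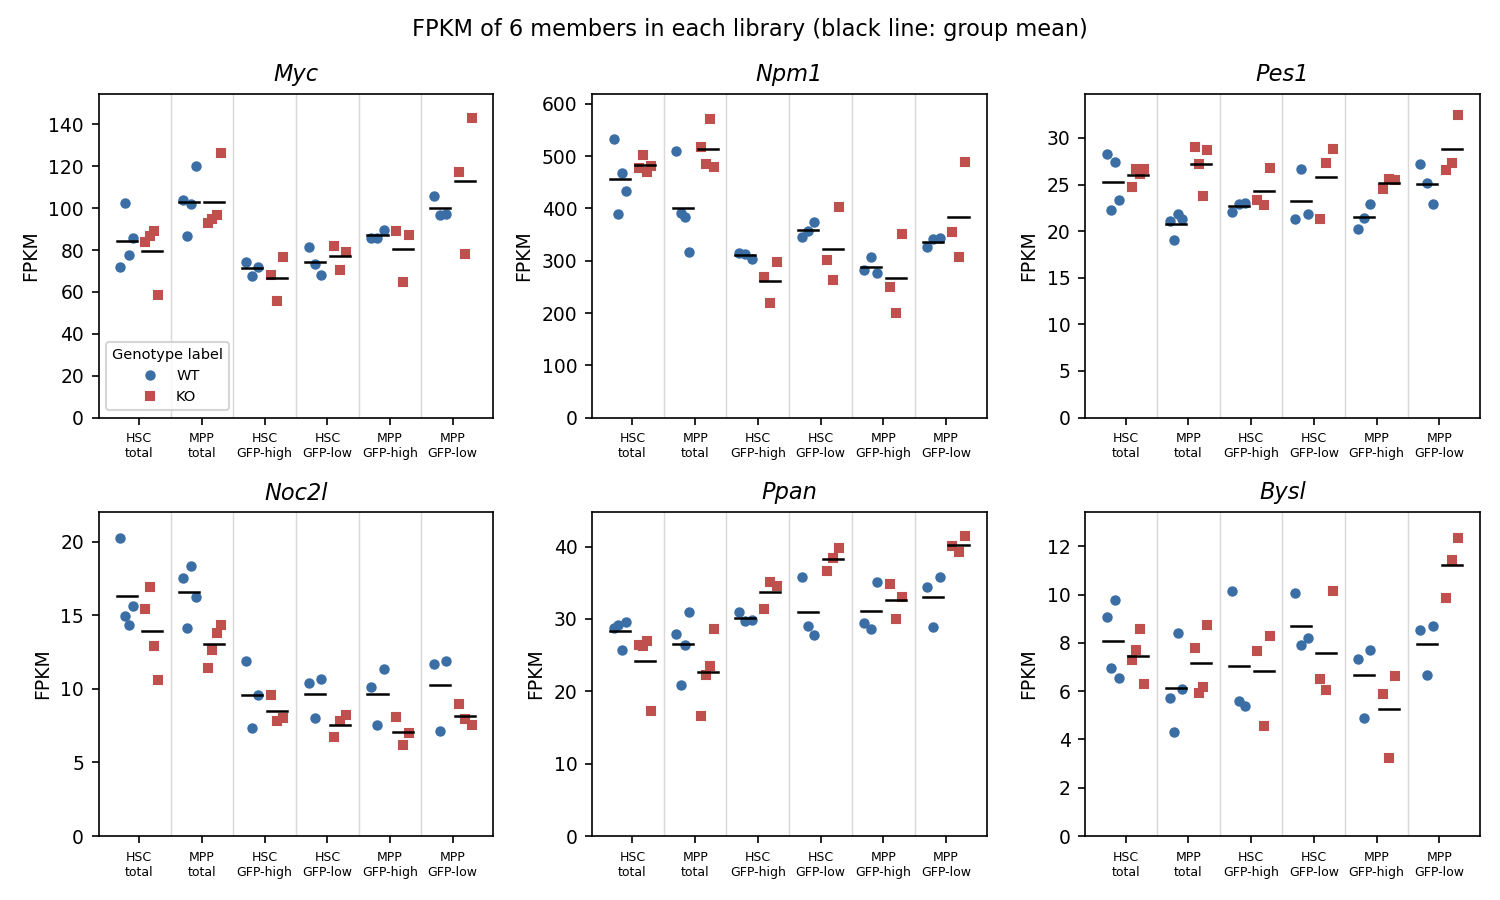
FPKM in each library (points) and group means (lines) of Myc, Npm1, Pes1, Noc2l, Ppan and Bysl, for WT and KO in the 6 populations. Pes1 means are higher and Noc2l means lower in KO in every population, and Myc ranges overlap in each. The first and the second cohort used other gene lengths and depths, so levels are compared within a population.

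Polyamines support growth, and their synthesis begins with Odc1 (ornithine decarboxylase) followed by Srm (spermidine synthase). In MPPs Odc1 was at 43.8, 29.3, 41.9 and 26.3 FPKM in WT and 54.4, 65.5, 53.4 and 29.3 FPKM in KO. KO libraries 1 to 3 were above all WT libraries and KO library 4 was not (0.48 ± 0.24, SE; adjusted p = 0.353, limma). In GFP-high MPPs the difference of Odc1 was -0.39 ± 0.22, with KO library 2 the lowest at 9.68 FPKM, and it was -0.11 without that library. The differences of Srm lay between -0.20 and 0.27, and its groups overlapped in all 6.

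The KO difference was also compared between populations, with an interaction term in limma. No member's difference depended on the population at an adjusted p under 0.05. Between MPPs and HSCs 0 of 38 passed, where 0.00760% of 13166 genes did, and the median of the members was 0.17, with 31 of 38 above 0. Pes1 (difference 0.32, adjusted p = 0.594) and Dkc1 (0.41, adjusted p = 0.616) were the 2 members at an unadjusted p under 0.05, where 7.84% of all genes were. Between GFP-low and GFP-high MPPs 0 of 38 passed (0% of 10417 genes), with a median of 0.16 and 34 of 38 above 0. Bysl, at 0.77 (adjusted p = 0.999), was the only one at an unadjusted p under 0.05, where 2.70% of all genes were. Between GFP-low and GFP-high HSCs 0 of 38 passed (0% of 10501 genes), with a median of 0.08 and 25 of 38 above 0. At an unadjusted p under 0.05 there were 0 of 38, where 3.35% of all genes were. Over all genes the medians of these comparisons were 0.002, -0.008 and -0.005 in the order given, and the share above 0 was not counted. Members varied together from library to library, so the counts above 0 are not 38 separate observations. With GFP-high and GFP-low libraries of one genotype and number paired, 0 members passed in either cell type, and the smallest adjusted p was 0.935 in HSCs (Polr1b) and 0.760 in MPPs (Gar1). At an unadjusted p under 0.05 this paired fit had 2 members in HSCs (Polr1b and Utp20), where 5.14% of all genes were, and 4 in MPPs (Gar1, Odc1, Bysl and Npm1), where 6.30% were.

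Among other factors of the pathway, further subunit assembly factors and other MYC targets had medians on the same side of 0 as the members in HSCs and GFP-low MPPs. In HSCs 7 of 36 further small subunit factors, 4 of 35 further large subunit factors and 8 of 35 other MYC targets had a higher KO mean, with medians of -0.12, -0.09 and -0.11 and 0 past the threshold. In GFP-low MPPs 27 of 37, 23 of 35 and 24 of 35 did, with medians of 0.13, 0.09 and 0.08 and again 0 past it. The other lists of the pathway held fewer genes. In HSCs 4 of 10 further snoRNP factors, 5 of 14 further RNA polymerase I factors and 5 of 14 genes of the Myc network had a higher KO mean (medians -0.03, -0.06 and -0.06). In GFP-low MPPs 5 of 10, 9 of 14 and 6 of 13 did (medians 0.00, 0.07 and -0.01). Cytosolic ribosomal proteins, the structural part of the ribosome, did not share the direction: in HSCs 70 of 76 had a higher KO mean (median 0.08) and in GFP-low MPPs 16 of 75 did (median -0.05). In MPPs 27 of 35 other MYC targets had a higher KO mean (median 0.16). Tfrc, the transferrin receptor, was the largest of them, at means of 8.64 FPKM in WT and 18.04 FPKM in KO (log2 difference 0.97; adjusted p = 0.0514, limma). Tfrc is also an erythroid marker, and the 12 erythroid markers all had a higher KO mean in MPPs (median 1.08), with summed levels of 848 to 11049 ppm in WT and 3497 to 15584 ppm in KO. Here ppm is FPKM after the library's summed FPKM is set to 1e+06.

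Medians of cell cycle genes were farther from 0 than that of the members in some populations, without a call. In MPPs 26 of 26 mitosis genes and 25 of 27 DNA replication genes had a higher KO mean (medians 0.78 and 0.37), beside 20 of 38 members (median 0.02). In GFP-high HSCs 0 of 28 mitosis and 0 of 28 replication genes did (medians -0.41 and -0.31), beside 12 of 38 members (median -0.06). In GFP-low MPPs replication genes had lower KO means in 23 of 28 (median -0.22) while 33 of 38 members had higher ones (median 0.12), and 17 of 28 mitosis genes had a higher KO mean (median 0.05). None of these replication or mitosis genes passed the threshold.

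Markers of other cell types also had different means in the 2 genotypes. In GFP-low MPPs, where 33 of 38 members had a higher KO mean, all 10 erythroid markers tested did too (median 0.96) and 3 passed the threshold. Their summed level was 2820 to 4273 ppm in WT and 6268 to 7791 ppm in KO, with the globins Hba-a2 and Hbb-bs at 0 in every library of that table. In HSCs 30 of 38 members had a lower KO mean. Of 8 granulocyte-monocyte progenitor markers listed, 5 were tested there, and all 5 had a higher KO mean (median 1.13). Summed levels of that list were 169 to 420 ppm in WT and 273 to 415 ppm in KO. Mature neutrophil markers went the other way in HSCs, with 1 of 7 higher and 6 lower in KO (median -0.28). In GFP-low HSCs all 9 mature neutrophil markers had a higher KO mean (median 1.02), with summed levels of 11786 to 13361 ppm in WT and 6865 to 88289 ppm in KO. In GFP-high MPPs all 9 did as well (median 0.95), at 13057 to 17001 ppm in WT and 12377 to 80669 ppm in KO. In MPPs, GFP-high HSCs and GFP-low MPPs 4, 4 and 5 of the 9 had a higher KO mean. The part of these cells in the members' values was not tested.

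GFP-low cells, which had divided more, had higher mean levels of most members than GFP-high cells of the same genotype, as a share of each library. Because GFP-high and GFP-low libraries are in tables that may be scaled separately, levels were set side by side in ppm, as log2(ppm + 1). No test was made. The median GFP-low minus GFP-high difference of the 38 genes was 0.25 in WT HSCs (37 of 38 above 0, beside 61.2% of all genes) and 0.16 in KO HSCs (33 of 38, beside 41.7%). It was 0.19 in WT MPPs (34 of 38, beside 52.1%) and 0.30 in KO MPPs (38 of 38, beside 43.3%). The medians over all genes were 0.06, -0.06, 0.01 and -0.05 in the same order.

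Members whose groups did not overlap and were higher in GFP-low cells numbered 10 of 38 in WT HSCs, beside 13.6% of all genes. There were 3 of 38 in KO HSCs (5.54% of all genes), 10 of 38 in WT MPPs (9.46%) and 8 of 38 in KO MPPs (5.30%). On the lower side there was 1 in KO HSCs and 0 in the other 3, where 10.4%, 5.92%, 6.35% and 8.40% of all genes were in KO HSCs, WT HSCs, WT MPPs and KO MPPs. The ribosomal RNA precursor Rn45s took 12.6% to 27.5% of summed FPKM in this cohort. With Rn45s left out of the total, the higher counts were 6, 3, 6 and 15 for WT HSCs, KO HSCs, WT MPPs and KO MPPs, beside 11.4%, 5.86%, 6.79% and 7.65% of all genes, and the medians were 0.24, 0.14, 0.15 and 0.31.

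Srm had one of the larger differences among the members without overlap in both WT cell types. In WT HSCs it was at 233, 194 and 198 ppm in GFP-high and 289, 271 and 274 ppm in GFP-low libraries, a log2 difference of 0.42. In WT MPPs it was at 215, 163 and 194 ppm in GFP-high and 301, 236 and 251 ppm in GFP-low libraries (0.46). Every GFP-low library was above every GFP-high library in both. Fbl in WT HSCs was at 78.2, 119 and 94.3 ppm in GFP-high and 122.6, 128 and 126 ppm in GFP-low libraries (0.39). Nhp2 in WT MPPs was at 340, 287 and 315 ppm in GFP-high and 435, 378 and 388 ppm in GFP-low libraries (0.35). Myc, too, did not overlap in WT MPPs, at 268, 280 and 268 ppm in GFP-high and 329, 307 and 310 ppm in GFP-low libraries (0.21).

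In KO cells Srm was also higher on average in GFP-low libraries, by 0.57 in HSCs and 0.72 in MPPs, but its groups overlapped. It was at 163, 165 and 260 ppm in GFP-high and 279, 226 and 367 ppm in GFP-low KO HSCs. Among members without overlap in KO HSCs, Heatr1, a small subunit factor also needed for RNA polymerase I transcription, was at 10.1, 9.35 and 10.4 ppm in GFP-high and 11.6, 12.3 and 14.6 ppm in GFP-low libraries (0.33). Nip7, a pre-60S factor, was at 87.4, 87.8 and 94.6 ppm in GFP-high and 122, 105 and 97.5 ppm in GFP-low libraries (0.26). Noc2l was the only member lower in GFP-low cells without overlap, at 30.6, 26.5 and 27.9 ppm in GFP-high and 22.4, 24.9 and 25.0 ppm in GFP-low KO HSCs (-0.22). In KO MPPs Bysl showed the largest difference of any member, at 18.8, 11.3 and 22.3 ppm in GFP-high and 30.02, 39.3 and 41.8 ppm in GFP-low libraries (1.08). Ddx21 was at 24.6, 25.7 and 31.3 ppm in GFP-high and 34.2, 46.0 and 47.9 ppm in GFP-low KO MPPs (0.62). No Bysl or Ddx21 library of one sort reached the other.

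**Figure D4:**
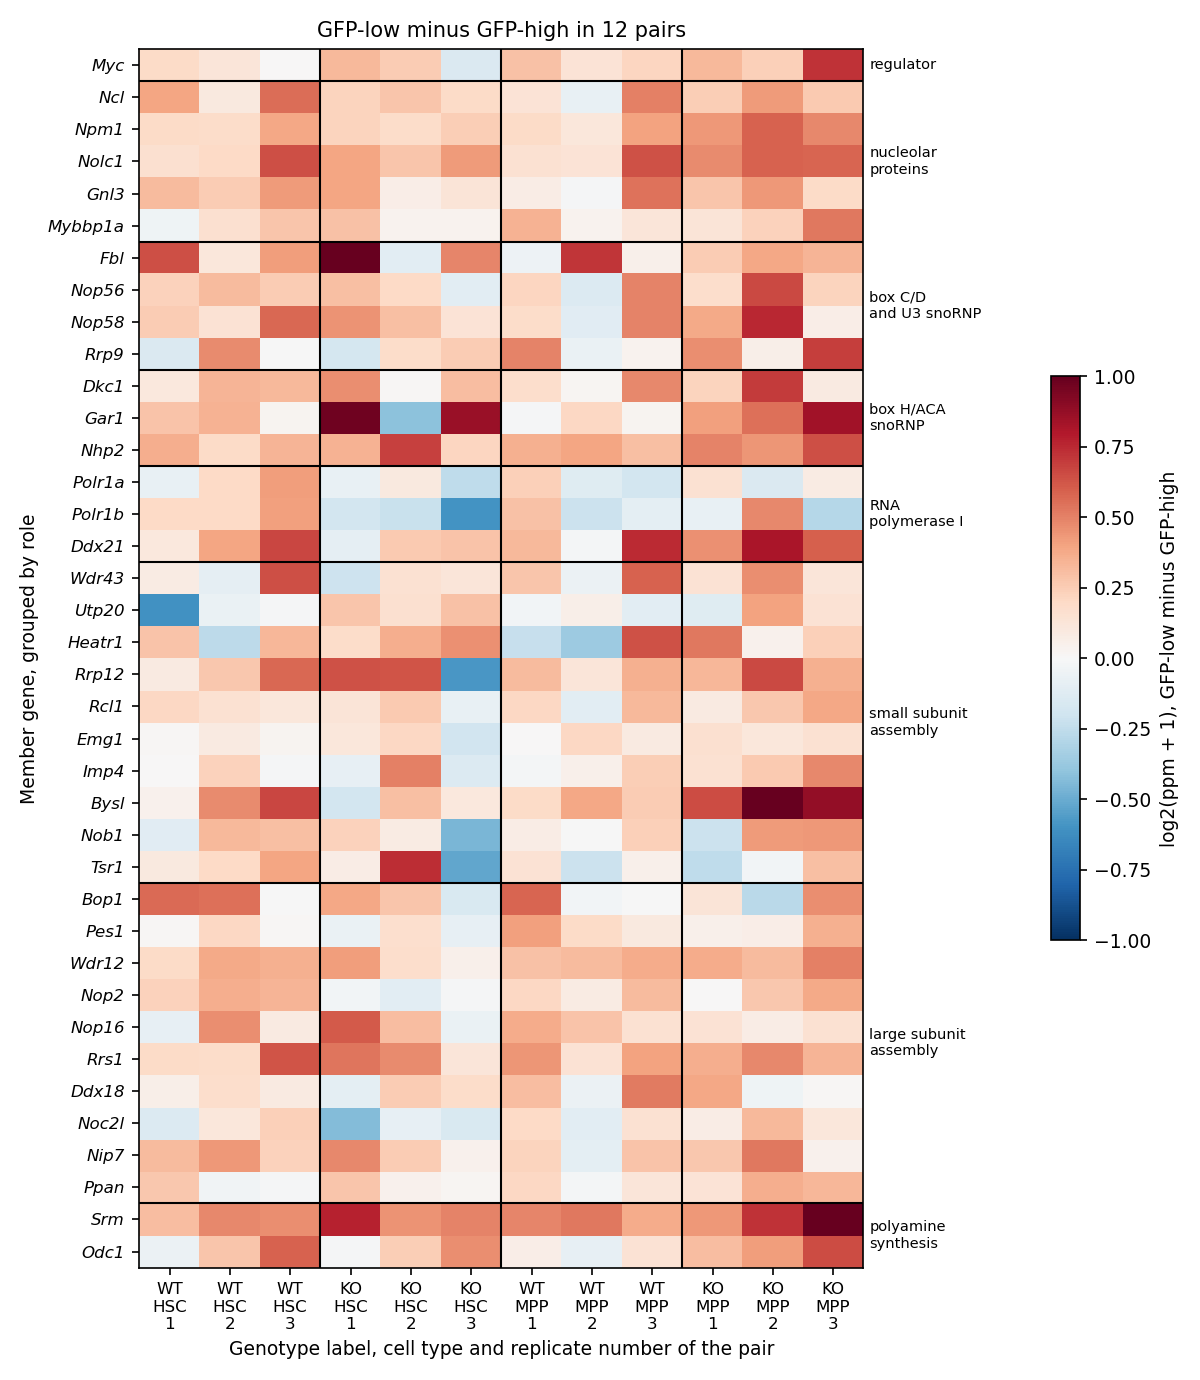
GFP-low minus GFP-high difference on the log2(ppm + 1) scale for each of the 38 genes (rows, grouped by role) in the 12 pairs of libraries with one genotype and number (columns), with colours spanning -1 to 1. Most cells are above 0. The most mixed rows are Polr1b (5 of 12 pairs above 0), Polr1a and Utp20 (6) and Bop1 and Noc2l (7), and WT MPP pair 2 (19 of 38 genes above 0) and KO HSC pair 3 (23 of 38) are the most mixed columns.

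GFP-high and GFP-low libraries of one genotype and number deviated together, so the difference could also be taken pair by pair. The median of the 38 genes was above 0 in 12 of 12 pairs, from 0.01 in WT MPP pair 2 (19 of 38 genes) to 0.41 in KO MPP pair 2 (34 of 38 genes). Dkc1, Nhp2, Nolc1, Npm1, Rrs1, Srm and Wdr12 were higher in GFP-low cells in all 12 pairs. Another 9 genes, Myc and Ncl among them, were higher in 11 of 12. The share of all genes that did so over the 12 pairs together was not counted. At the other end, Polr1b was higher in 5 of 12 pairs and Polr1a and Utp20 in 6. In WT HSCs, KO HSCs, WT MPPs and KO MPPs the difference of group means was 0.18, -0.08, -0.02 and 0.03 for Polr1a and 0.27, -0.33, -0.01 and 0.04 for Polr1b. Ddx21, the third gene of RNA polymerase I transcription, was at 0.39, 0.15, 0.35 and 0.62 and was higher in 10 of 12 pairs. The box H/ACA proteins had medians of 0.25, 0.41, 0.23 and 0.53. Members higher in all 3 pairs of a group numbered 25, 15, 15 and 31 of 38 in WT HSCs, KO HSCs, WT MPPs and KO MPPs, beside 27.3%, 14.4%, 20.0% and 18.7% of all genes.

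**Figure D5:**
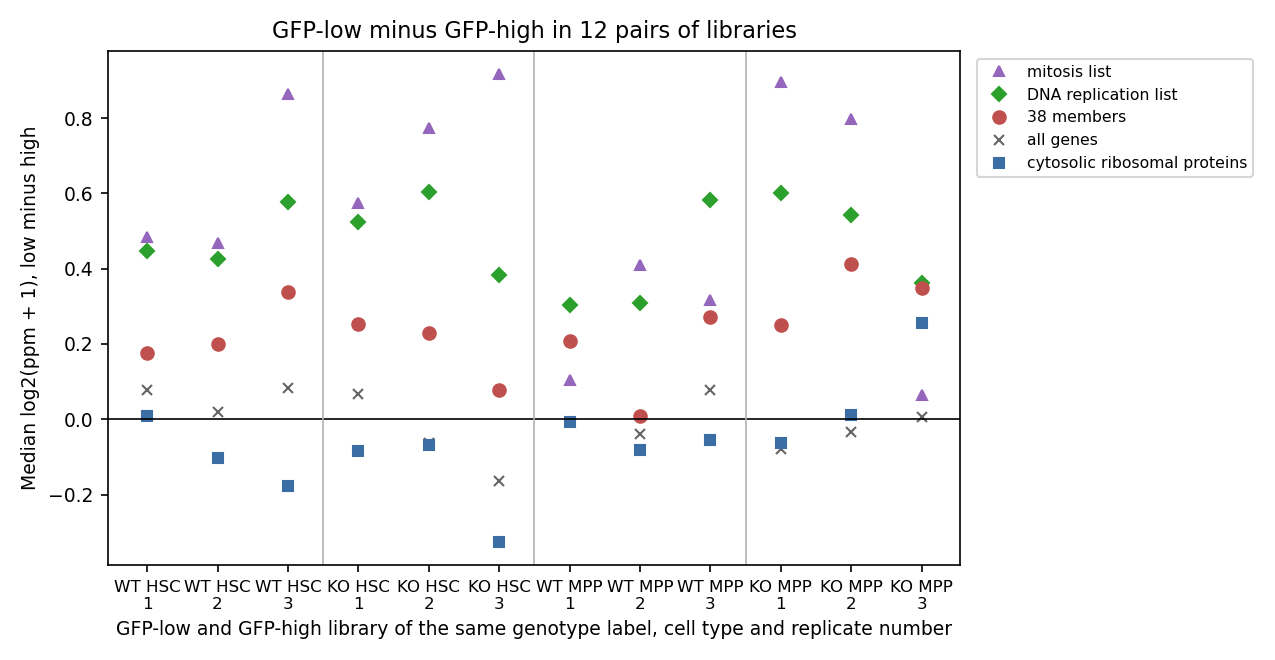
Median GFP-low minus GFP-high difference on the log2(ppm + 1) scale in each of the 12 pairs, for mitosis genes, DNA replication genes, the 38 members, all genes tested and cytosolic ribosomal proteins. The members lie above 0 in all 12 pairs and below the DNA replication genes in the same 12.

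Other gene groups were set beside the members in the same way. Medians in WT HSCs, KO HSCs, WT MPPs and KO MPPs were 0.50, 0.52, 0.39 and 0.47 for DNA replication genes and 0.60, 0.81, 0.28 and 0.57 for mitosis genes. By pair, the mitosis median was below that of the members in WT MPP pair 1 (0.10 against 0.21) and KO MPP pair 3 (0.06 against 0.35). For cytosolic ribosomal proteins they were -0.10, -0.15, -0.05 and 0.06. Other MYC targets (0.31, 0.22, 0.27 and 0.31) lay close to the members, and further small subunit factors were lower (0.20, 0.06, 0.11 and 0.16), as were further large subunit factors (0.20, 0.09, 0.15 and 0.19). The Myc network, which holds MYC's partners and antagonists, had medians of 0.05, -0.18, -0.01 and -0.02. Quiescence genes lay on the other side of 0 (-0.15, -0.12, -0.16 and -0.29). Erythroid markers differed too, with medians of -0.53, 0.92, 0.97 and 1.65, and HSC markers had medians of -0.25, -0.44, -0.34 and -0.66. The part of a changed mix of cells in the members' values was not tested.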

How the data were processed

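RNA was measured in 40 mouse libraries of 12 groups. PolyA RNA was amplified with a SMART-Seq2 kit and made into libraries with a Nextera XT kit, per the labels' protocols. The authors deposited FPKM values in 6 tables, 1 for each population, with WT and KO libraries together. STAR, DESeq2, HOMER and the mouse build mm10 are named in the submitters' processing notes without role or version, and how the FPKM were scaled is not given in the sources used here. Every value column was matched to a sample, with 0 left over. Within a table, at least 99.98% of genes had FPKM that were whole multiples of 1 read within 0.01, which gave the reads per library. These reads set the depth only, and counting error was not modelled.

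Genes were kept at 1 FPKM or more in at least 4 of 8 (first cohort) or 3 of 6 libraries. KO and WT were compared within a table with limma 3.58.1 (R 4.3.3) on log2(FPKM + 1), with an intensity trend, two-sided p-values and Benjamini-Hochberg adjustment over all genes tested, at 0.05. Differences of KO effects were an interaction term over 2 tables. GFP-low and GFP-high libraries were rescaled to 1e+06 summed FPKM, and no test was made across tables. Most WT and KO libraries of one number did not deviate together (correlations of deviations from the group means from -0.116 to 0.285). Correlations above 0.1 were found in 1 of 4 MPP, 1 of 3 GFP-low HSC and 2 of 3 GFP-low MPP pairs, and in no other population. GFP-high and GFP-low libraries of one genotype and number deviated together, with correlations of 0.136 to 0.398 in all 12 pairs. This pairing was read from the data and not from the labels. The fits were tested on simulated data with planted log2 differences of 1 and 2. Of 100 each, 71 to 94 and 96 to 99 were called. Differences as small as those of the members were not simulated. Tables were handled in Python 3.11.15 with pandas 2.3.3 and numpy 2.4.6.

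The 38 genes, the gene lists and the tests were chosen with earlier results of these data known. Values in every library are given for Myc, Ncl, Npm1 and Fbl, for the member with the smallest p in each direction of a comparison, and for up to 2 members with the largest GFP-low difference on each side among those without overlap. Other members given with values (Dkc1, Nop56, Rrp9, Polr1a, Rrs1, Odc1, Ppan in GFP-low MPPs, Srm in KO cells and Myc in ppm) were picked after their values were seen. So were Hira, Mycn, Ccnd3, Samd11 and the cell type markers Slamf1, Procr and Flt3. Alternatives were a pseudocount of 0.1, no filter, rescaling to one total, a replicate block, leaving out each library, and, added after seeing the data, leaving Rn45s out of the total, leaving each library out for the other members and pairing GFP-high with GFP-low libraries. Gene positions are from GENCODE vM21 on GRCm38.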

Additional observations from a re-analysis of the deposited data

Results flagged for a closer look

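Within groups of 4 libraries, 5 of the 68 sets of values checked had a library far from the other 3, beside about 1 in 20 that chance gives. Of these, 3 are the same library, KO HSC replicate 4: its mean log2(FPKM + 1) over the 38 genes was 4.44 where the next was 4.72, its Myc was 58.7 FPKM where the next was 84.1 FPKM, and its Ppan was 17.2 FPKM where the next was 26.2 FPKM. The other 2 are KO MPP replicate 4, with the highest Myc at 126 FPKM (next 96.8 FPKM) and the highest Nip7 at 33.4 FPKM (next 28.1 FPKM). Groups of 3 libraries were not checked in this way.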

How the results depend on the processing

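No member passed the threshold under any alternative run (a pseudocount of 0.1, no filter, rescaling to one total, the replicate block, and leaving out each library in turn), so the count stayed at 0 with the replicate block in all 6 comparisons. All 219 alternative values of the counts and medians over members, and of the medians over all genes, kept their side or moved by less than 1 SD between libraries. That SD was 0.13 to 0.17, larger than every member median of KO minus WT. A median could thus vanish or turn and still count as kept, so this count does not show that the KO minus WT medians hold. Leaving out 1 library moved the median member difference from -0.15 to -0.01 in HSCs, -0.03 to 0.06 in MPPs, -0.15 to 0.03 in GFP-high HSCs, -0.10 to 0.06 in GFP-low HSCs, -0.16 to 0.06 in GFP-high MPPs and 0.04 to 0.18 in GFP-low MPPs. The GFP-low minus GFP-high median stayed above 0 throughout. Of 374 alternative values of named members 26 changed sign, all on leaving out 1 library. The ranges were, in HSCs, -0.161 to 0.0481 for Myc, -0.0935 to 0.0995 for Ncl and -0.0362 to 0.299 for Fbl. In MPPs Myc ranged from -0.110 to 0.0688. In GFP-high HSCs the range was -0.208 to 0.0180 for Myc and -0.168 to 0.0240 for Ncl. In GFP-low HSCs it was -0.0085 to 0.121 for Myc, -0.229 to 0.0042 for Ncl and -0.386 to 0.0362 for Fbl. In GFP-high MPPs it was -0.208 to 0.0181 for Myc, -0.112 to 0.128 for Ncl, -0.367 to 0.0393 for Npm1 and -0.180 to 0.262 for Fbl. In GFP-low MPPs it was -0.0623 to 0.371 for Myc, -0.0302 to 0.306 for Npm1 and -0.0428 to 0.361 for Fbl. Counts over all genes moved by more than 1.5 times: without the filter from 17 to 2 in HSCs, 15 to 0 in MPPs and 34 to 2 in GFP-low MPPs, on rescaling to 5 in HSCs and 0 in GFP-high HSCs, and with the replicate block to 10 in HSCs, 137 in MPPs and 52 in GFP-low MPPs. A pseudocount of 0.1 gave 7 in MPPs. Leaving out 1 library gave 9 to 17 in HSCs, 0 to 205 in MPPs, 0 to 1 in GFP-high HSCs, 0 to 6 in GFP-low HSCs, 0 to 1 in GFP-high MPPs and 0 to 31 in GFP-low MPPs. The cause was not tested. Most WT and KO libraries of one number did not deviate together. Depth was lower in the second cohort, and its part in the small differences of the members was not tested.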

Other observations

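Mycn, a close relative of Myc that HSCs are known to express, had a higher KO mean in all 6 comparisons, while Myc did so in 2. It was picked after its values were seen, and no difference passed the threshold. In HSCs Mycn was at 46.6, 57.7, 43.7 and 50.3 FPKM in WT and 58.4, 70.0, 66.4 and 51.5 FPKM in KO (adjusted p = 0.441, limma). The groups overlapped through WT library 2 and KO library 4. In GFP-low MPPs it was at 24.9, 21.0 and 23.4 FPKM in WT and 26.1, 29.4 and 30.4 FPKM in KO, without overlap (adjusted p = 0.351, limma). In GFP-high HSCs the means were 53.6 ± 9.59 FPKM in WT and 71.1 ± 12.7 FPKM in KO, and in GFP-high MPPs 28.9 ± 5.81 FPKM and 40.1 ± 7.02 FPKM (SD, n = 3). In MPPs they were 23.3 ± 3.05 and 25.5 ± 1.66 FPKM (SD, n = 4), and in GFP-low HSCs 53.4 ± 10.7 and 56.0 ± 6.83 FPKM (SD, n = 3). Mycn was at higher levels in WT HSCs than in WT MPPs of either cohort, and Myc at lower ones, in tables scaled separately and with no test.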
